A study of Mus musculus with 12 samples.

Results

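The matrix metalloproteases (MMPs), the ADAM and ADAMTS proteases, the ADAMTS-like proteins, the lysyl oxidases and the plasminogen activators with their receptor were followed at the level of mRNA in S1 tumorspheres. They were chosen by name: all protein-coding genes of the deposited tables called Mmp, Adam, Adamts, Adamtsl, Lox or Loxl with a number, together with Lox, Plau, Plat and Plaur. These were 55 of the 18926 genes in the tables, of which 13983 were protein-coding. The RefSeq table of GRCm38.p6 holds 89 protein-coding genes with such names, and the other 34, among them Mmp8, Mmp16, Mmp25, Loxl1 and Adamts18, were not analysed here. The tables listed no gene with a count of 0 in any library, and all 55 members passed the filter on low counts and were tested.

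S1 is a mouse gastric cancer cell line from a ChetPS mouse, in which 1 copy of Cdh1 and both copies of Trp53 and of Smad4 are floxed, so all groups share this background. Its cells were grown in suspension as tumorspheres in a serum-free medium with EGF, although the sample labels call them monolayer cells. All groups carried Cas9, and the knockouts were made with lentiviral guide RNAs as selected pools of cells. The 4 groups, with 3 libraries each, were labelled control, Rasa1 KO, Nf2 KO, and KO of both genes. Total RNA was sequenced after removal of rRNA. The study calls the dots of these libraries technical replications, so p-values here reflect only how far libraries of a group lie from each other, which may be technical.

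MMPs are zinc proteases that are made as inactive precursors and, once activated, cleave collagens, proteoglycans and other proteins outside the cell. ADAMs are mostly membrane-bound relatives that release growth factors, receptors and adhesion molecules from the cell surface, and ADAMTS proteases are secreted and cleave proteoglycans or process collagen precursors. Lysyl oxidases are copper enzymes that start the cross-linking of collagen and elastin. The plasminogen activators Plau (uPA) and Plat (tPA) turn plasminogen into plasmin, a protease that degrades fibrin and can activate some MMP precursors. Carcinoma cells are known to use these enzymes to pass through the basement membrane, and Mmp7 is known as an MMP that epithelial cells themselves make.

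Total counts per library were between 43818139 and 96674463, and the members took between 0.206% and 0.289% of them. Levels are given as CPM, counts scaled to a common library size with TMM normalization, and serve to compare 1 gene between libraries. Per library, they are listed for the control and labelled Rasa1-KO libraries in the order unnumbered, 1 and 2, and for the other groups in the order 1, 2 and 3. Levels of different genes are compared only as FPKM, which also divides by the length of the transcript. Log2 fold changes with their standard errors (SE) and adjusted p-values are from edgeR's quasi-likelihood test with Benjamini-Hochberg adjustment over 18053 genes, and a gene is called, or said to rise or fall, at an adjusted p under 0.05.

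The targeted genes were measured first. Nf2 (Entrez gene 18016, chromosome 11) encodes merlin, an activator of the Hippo pathway. It had 58.1, 61.0 and 55.4 CPM in control and 14.3, 13.2 and 13.2 CPM in Nf2-KO, where it fell by 2.098 on the log2 scale (SE 0.09, adjusted p = 2.5e-08). Its level was 11.6, 11.9 and 12.1 CPM in the libraries labelled Rasa1-KO (log2 fold change -2.29, SE 0.09, adjusted p = 2.9e-08), and those labelled double-KO had 62.6, 57.6 and 56.4 CPM, so the labelled Rasa1-KO lay below all controls and the labelled double-KO overlapped them. Rasa1 (Entrez gene 218397, chromosome 13) encodes a GTPase-activating protein that turns Ras off. It had 60.5, 74.9 and 78.5 CPM in control, 34.5, 30.4 and 30.8 CPM in the labelled Rasa1-KO, 97.2, 101 and 97.2 CPM in Nf2-KO and 17.7, 20.6 and 23.3 CPM in the labelled double-KO. The labelled double-KO was lowest and the labelled Rasa1-KO next, both below all controls (log2 fold changes -1.79 and -1.16, SE 0.13 each). Nf2 mRNA goes against the labels of the groups Rasa1 KO and KO of both, and the names of their deposited tables are the reverse of their labels. These groups are therefore called "labelled Rasa1-KO" and "labelled double-KO" throughout. With the labels exchanged, each level and each difference from control given here for one of them is that of the other. Differences between both groups then change sign. Their comparison with Nf2-KO and the test of whether the knockouts add up give other values.

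**Figure D1:**
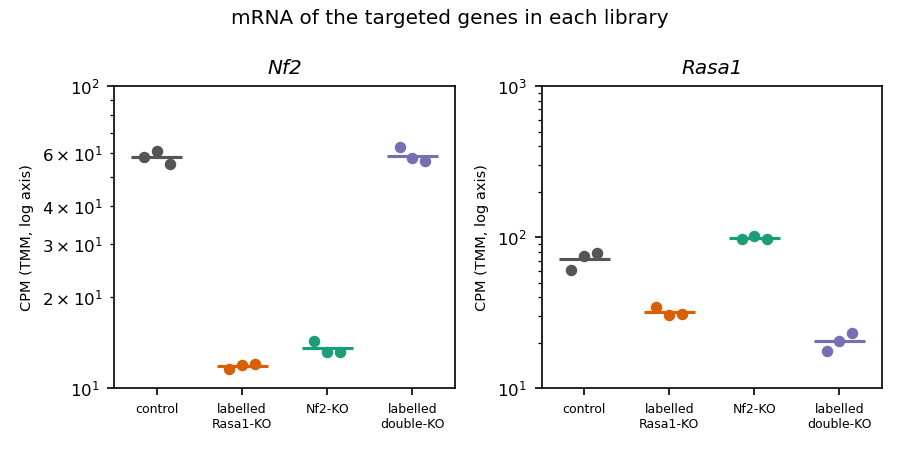
CPM (TMM, log axis) of Nf2 and Rasa1 in the 12 libraries. Points are libraries and lines are means of 3. Nf2 was low in the Nf2-KO and labelled Rasa1-KO libraries, and Rasa1 was lowest in the labelled double-KO libraries.

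The unnumbered control library and library 1 labelled double-KO stood apart from the other libraries of their groups. The median chi-square per gene between the unnumbered control and the other controls was 31.6 and 47.6, against 8.21 between those. Library 1 labelled double-KO gave 11.5 and 12.1 against the others of its group, which gave 2.65 between them. The main counts of members are given with and without both, an alternative chosen after the data were seen. For members whose call against control differs without both, the value or adjusted p without both is given too. Epithelial markers were present, with 5 of 5 in the tables and the most counts for Krt8 (2257 ± 835 CPM in control, SD, n = 3). Of 6 gastric markers, 4 were analysed, and their sum was between 1.35 and 8.93 CPM per library. The gastric origin thus showed little in these markers.

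Of the 55 members, 45 differed over the 4 groups (4-group test, adjusted p under 0.05), which is 81.8% of them against 46.3% of all tested genes. Without both libraries that stand apart it was 50 members, 90.9%, against 73.2% of all genes. In the labelled Rasa1-KO against control, 19 members rose and 18 fell (34.5% and 32.7%), against 19.7% and 22.2% of all genes. Nf2-KO against control had 21 that rose and 17 that fell (38.2% and 30.9%), against 20.6% and 22.2% of all genes. The labelled double-KO had 7 that rose and 8 that fell (12.7% and 14.5%), against 4.0% and 2.46% of all genes. All 6 shares lay above those of all genes in this fit, which was not tested. The median log2 fold change of the members was near that of all genes in the labelled Rasa1-KO (-0.11 against -0.08) and the labelled double-KO (-0.08 against -0.04), and 0.31 against -0.07 in Nf2-KO. By the rule of the study (3-fold or more, with an unadjusted p under 0.05), the labelled Rasa1-KO had 17 members called, Nf2-KO 15 and the labelled double-KO 3, against 9.27%, 11.4% and 2.03% of all genes. Without both libraries that stand apart, more of all genes were called as well. Then 20 members rose and 23 fell in the labelled Rasa1-KO (78.2% in all, against 65.9% of all genes), 24 rose and 18 fell in Nf2-KO (76.4% against 67.0%), and 12 rose and 17 fell in the labelled double-KO (52.7% against 29.9%). The share of members that fell in Nf2-KO was then below the 33.9% of all genes that fell. In the labelled double-KO, 32 members were called without the unnumbered control library alone, against 30.1% of all genes, and 8 without library 2 or 3 of the group, against 2.68% and 2.73%. With only control and labelled double-KO libraries in the fit, edgeR called 0 of 54 members and 0.102% of all genes. Of these 54 members, 21 had an unadjusted p under 0.05, a number not compared with that of all genes. DESeq2 over all libraries called 22 members and 11.8% of all genes.

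**Figure D2:**
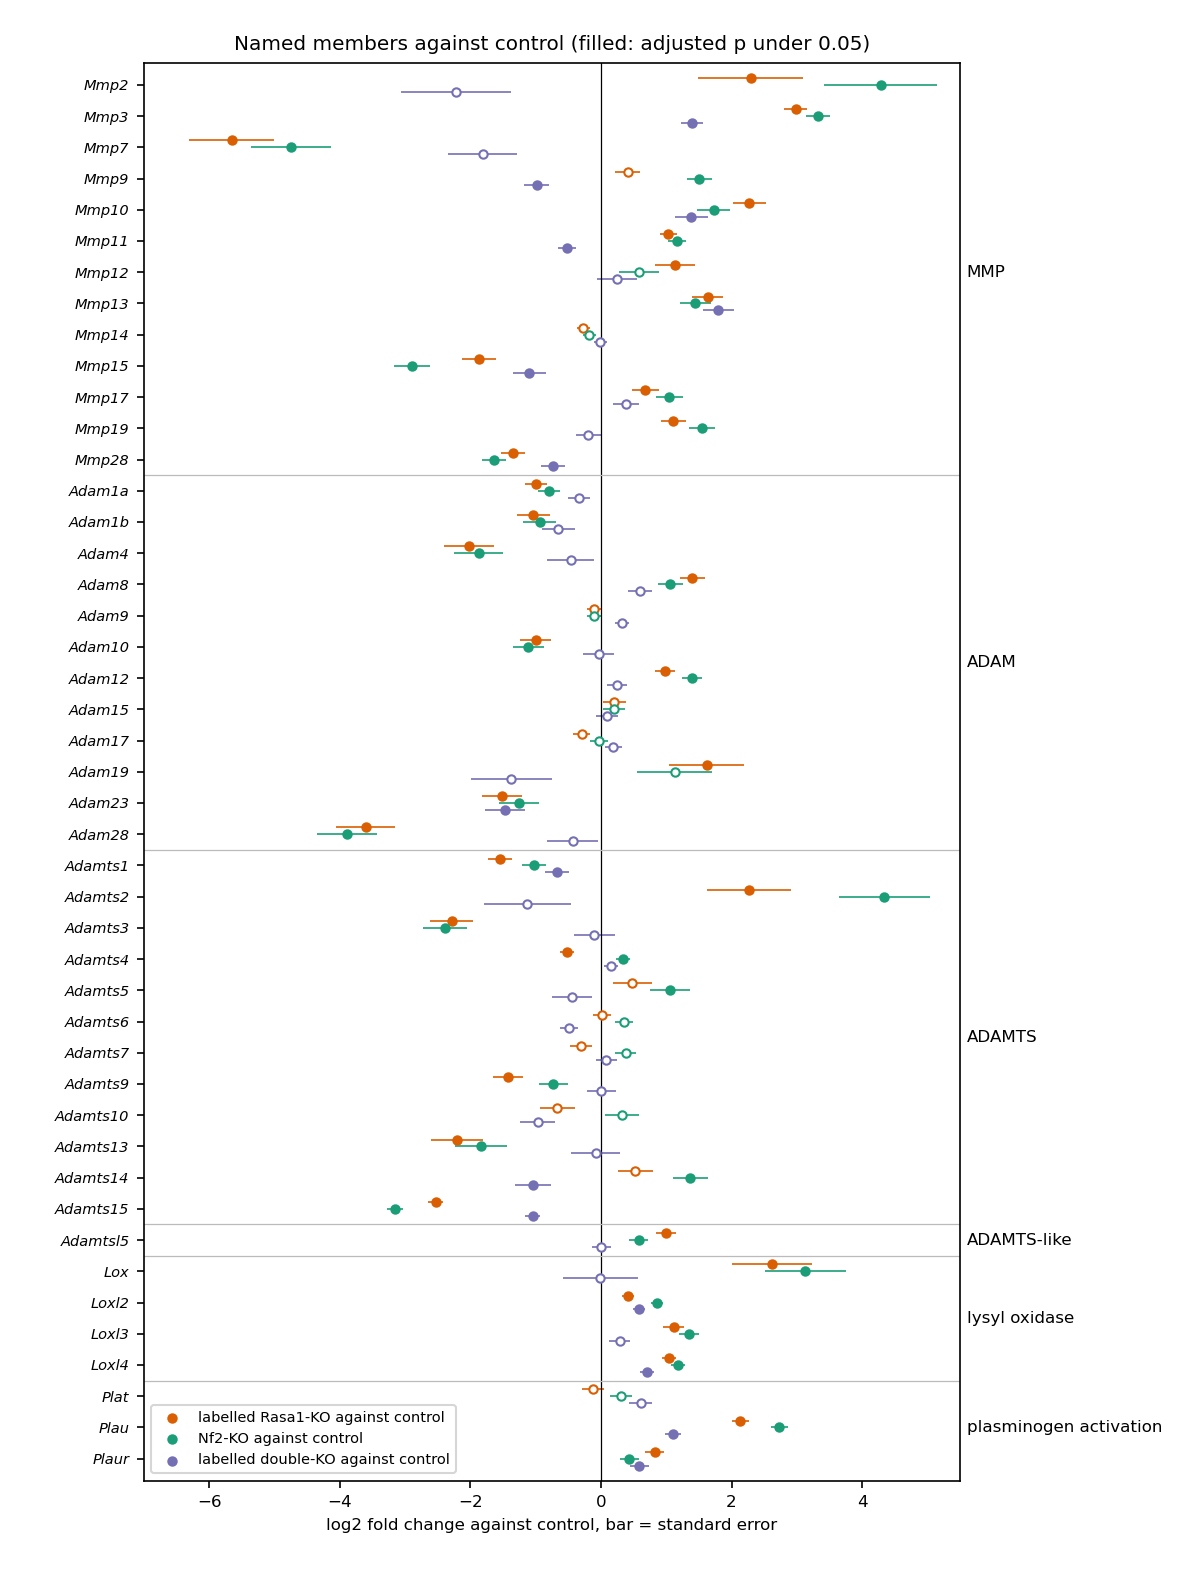
Log2 fold change against control of 45 of the members, by family, with 1 SE on either side. Filled points have an adjusted p under 0.05. Mmp7 lies farthest left, Mmp2 and Adamts2 in Nf2-KO farthest right, and all 4 lysyl oxidases lie right of 0 in the labelled Rasa1-KO and Nf2-KO.

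By level, Adamts1 led in control with 115 ± 32.7 FPKM (SD, n = 3), followed by Adam9 with 80.5 ± 6.23, Adam10 with 76.7 ± 31.4 and Plat with 70.8 ± 10.1 FPKM. These neighbours did not differ beyond their spread. Mmp14 followed with 44.0 ± 4.12 FPKM, and then Mmp7 with 32.1 ± 18.8, Adam15 with 25.3 ± 6.20, Plaur with 23.9 ± 3.81, Adam17 with 22.6 ± 3.63 and Loxl2 with 19.7 ± 1.72 FPKM, which again overlapped. The 10 members highest in a group held 79.4% of the summed FPKM of all members in control and 82.2% in the labelled double-KO, against 72.5% in the labelled Rasa1-KO and 69.9% in Nf2-KO. The order changed between groups: Mmp13 and Mmp3 were the third and the fifth in the labelled Rasa1-KO, with 41.0 ± 1.10 and 38.9 ± 0.85 FPKM, and Mmp3 was the fourth in Nf2-KO with 51.5 ± 4.12 FPKM. Adamts1, with 54.6 ± 2.04 FPKM in Nf2-KO, overlapped Mmp3 there within the spread, and whether neighbouring ranks differ was not tested. In control, Mmp13 had 14.5 ± 5.14 FPKM and Mmp3 had 5.40 ± 1.05 FPKM. At the other end, Adamts17 with 0.0271 FPKM, Adam21 with 0.0484 and Adam19 with 0.0709 FPKM were lowest in control.

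**Figure D3:**
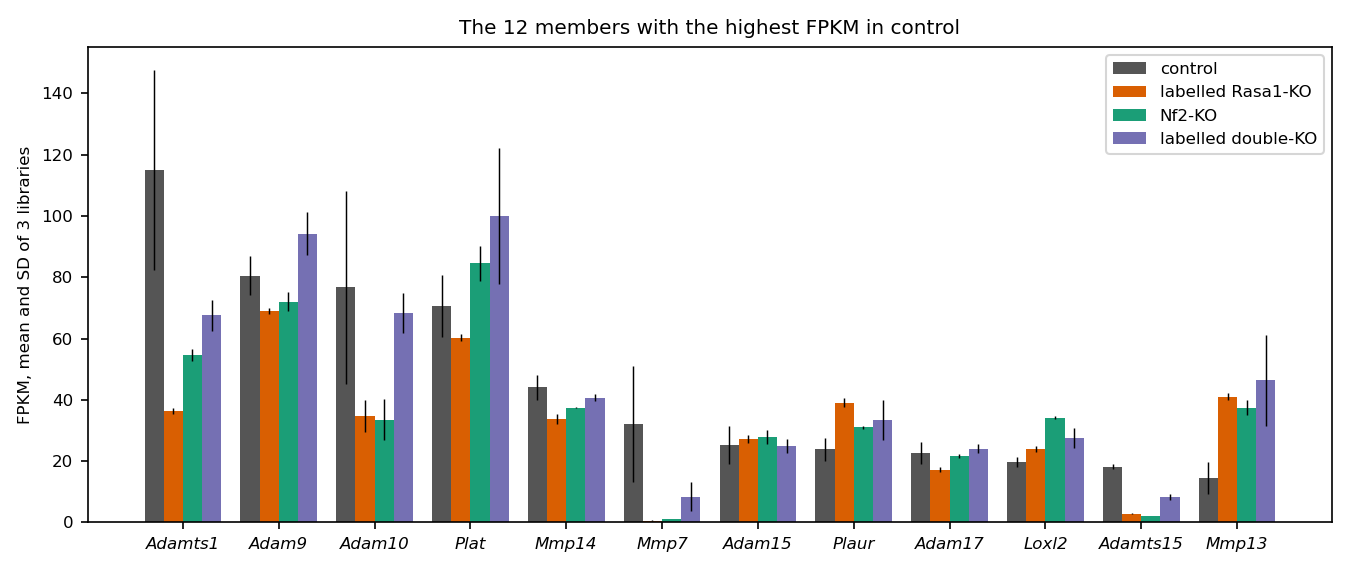
FPKM of the 12 members highest in control, as means of 3 libraries with SD, in the 4 groups. Adamts1, Adam10, Mmp7 and Adamts15 stand highest in control, whereas Mmp13 stands lowest there.

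Among the 15 MMPs, 8 rose and 4 fell both in the labelled Rasa1-KO and in Nf2-KO against control, and 3 rose and 4 fell in the labelled double-KO, against the shares of all genes given above. Mmp2, Mmp3, Mmp10, Mmp11, Mmp13, Mmp17 and Mmp19 rose in both, with Mmp12 in the labelled Rasa1-KO and Mmp9 in Nf2-KO, and Mmp7, Mmp15, Mmp23 and Mmp28 fell in both. The call of Mmp23 in Nf2-KO (-1.06, SE 0.36, adjusted p = 0.034) was lost without any 1 of 5 libraries (control 1, the unnumbered control and each Nf2-KO library), with adjusted p between 0.056 and 0.12, and without both libraries that stand apart (-0.80, SE 0.39, adjusted p = 0.087). Its call in the labelled Rasa1-KO was lost without library 2 of the group (adjusted p = 0.058). Mmp13, Mmp12, Mmp3, Mmp10 and Mmp7 lie in this order within 427 kb of chromosome 9 (GRCm38), and the group of 5 held the MMP that fell most as well as 3 that rose in every knockout group.

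To show what these neighbours share at their start sites, the 100 bases before the RefSeq start of the 3 that rose in every group and of Mmp7 are printed 5′ to 3′ on the plus strand (RefSeq, GRCm38.p6). Capitals mark the letters TGANTCA (N is any base), the core that AP-1 transcription factors are known to bind. The windows are chr9:7445722-7445821 for Mmp3, chr9:7502242-7502341 for Mmp10, chr9:7272414-7272513 for Mmp13 and chr9:7691990-7692089 for the first of the starts of Mmp7.
Mmp3: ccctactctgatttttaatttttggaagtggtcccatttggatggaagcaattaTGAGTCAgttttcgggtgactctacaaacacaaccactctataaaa
Mmp10: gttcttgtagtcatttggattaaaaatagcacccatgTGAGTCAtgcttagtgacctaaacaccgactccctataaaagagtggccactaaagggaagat
Mmp13: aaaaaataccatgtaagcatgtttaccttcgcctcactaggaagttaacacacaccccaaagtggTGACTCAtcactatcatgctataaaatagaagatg
Mmp7: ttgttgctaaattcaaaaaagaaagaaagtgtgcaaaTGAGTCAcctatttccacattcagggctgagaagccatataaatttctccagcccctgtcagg
The letters start 46 bases before the start of Mmp3, 63 before Mmp10, 35 before Mmp13 and 63 before Mmp7. Among these, only Mmp7 fell. Promoter windows of 300 bases (250 before and 50 after the start) were found for 32 of the 55 members, 37 windows in all. TGANTCA, which reads the same on both strands, was in 8 of the 37 windows (Mmp3, Mmp10, Mmp13, the first start of Mmp7, the second start of Mmp12, Plaur, Adam19 and Adam1b) and in 7.81% of the 32851 windows of all genes. It was in neither the window of the first start of Mmp12 nor that of the second start of Mmp7, which are not printed. Of the members with a window, 11 rose in the labelled Rasa1-KO, 6 of them with these letters. Another 12 fell there, 2 of them with these letters. Whether these shares differ was not tested. GGAATG, the core that TEAD factors are known to bind, searched on both strands, was in 3 of the 37 windows and in 14.7% of all. These are matches of letters and not measured binding.

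Mmp3 (stromelysin-1, Entrez gene 17392, GRCm38 chromosome 9, 7445822 to 7455975) cleaves proteoglycans and basement membrane proteins and activates other MMP precursors. It had 8.34, 10.8 and 11.1 CPM in control, 81.7, 79.0 and 78.5 CPM in the labelled Rasa1-KO, 92.1, 104 and 108 CPM in Nf2-KO and 33.7, 21.2 and 24.4 CPM in the labelled double-KO. All libraries of the 3 knockout groups lay above all controls, and those of the labelled double-KO lay between control and the other groups. The log2 fold changes were 2.98 (SE 0.18, adjusted p = 4.2e-07), 3.33 (SE 0.18, adjusted p = 1.4e-07) and 1.39 (SE 0.17, adjusted p = 0.00088), respectively.

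Mmp10 (stromelysin-2) has a similar range of substrates to Mmp3, and Mmp13 (collagenase-3) cleaves fibrillar collagen. Mmp10 was between 3.73 and 7.46 CPM in control, between 27.7 and 31.4 CPM in the labelled Rasa1-KO, between 18.9 and 21.0 CPM in Nf2-KO and between 11.2 and 19.6 CPM in the labelled double-KO. Mmp10 rose in all 3 knockout groups, with log2 fold changes of 2.27 (SE 0.26), 1.72 (SE 0.25) and 1.39 (SE 0.25). Mmp13 had 29.7, 37.2 and 53.5 CPM in control, 126, 125 and 122 CPM in the labelled Rasa1-KO, 111, 113 and 103 CPM in Nf2-KO and 90.5, 161 and 166 CPM in the labelled double-KO. Mmp13 rose in all 3 groups, with log2 fold changes of 1.64, 1.44 and 1.80 (SE 0.24 each, adjusted p = 0.00025, 0.00048 and 0.0014), which were 1.46, 1.27 and 1.86 (SE 0.12, 0.12 and 0.13) without both libraries that stand apart. Mmp12, the macrophage elastase, stayed at or below 1.39 CPM in all libraries and rose in the labelled Rasa1-KO (log2 fold change 1.13, SE 0.30, adjusted p = 0.011).

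Mmp7 (matrilysin, Entrez gene 17393, chromosome 9, 7692090 to 7699585) had 12.2, 46.1 and 47.0 CPM in control, 0.904, 0.438 and 0.744 CPM in the labelled Rasa1-KO, 1.19, 1.24 and 1.49 CPM in Nf2-KO and 3.51, 13.4 and 13.04 CPM in the labelled double-KO. The labelled Rasa1-KO and Nf2-KO libraries lay below all others, and library 1 labelled double-KO and the unnumbered control were the lowest of their groups. On the log2 scale Mmp7 fell by 5.65 (SE 0.65, adjusted p = 4.7e-05) in the labelled Rasa1-KO and by 4.75 (SE 0.61, adjusted p = 8.4e-05) in Nf2-KO, the largest falls among members. The labelled double-KO gave -1.81 (SE 0.53, adjusted p = 0.068), and its libraries overlapped control. With a block by the names of the tables over all libraries of the 4 groups, the value was -1.81 (SE 0.17, adjusted p = 0.00028). Without both libraries that stand apart it was -1.81 (SE 0.17, adjusted p = 1.9e-05).

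Mmp2 (gelatinase A, Entrez gene 17390, chromosome 8, 92827290 to 92853421) cleaves type IV collagen of basement membranes and denatured collagen. It had 0.138, 8.25 and 8.06 CPM in control, 26.0, 28.4 and 25.4 CPM in the labelled Rasa1-KO, 111, 103 and 104 CPM in Nf2-KO and 0.656, 1.49 and 1.37 CPM in the labelled double-KO. Nf2-KO lay above all other libraries and the labelled Rasa1-KO above all controls, and the unnumbered control library was the lowest of all. Nf2-KO gave a log2 fold change of 4.29 (SE 0.87, adjusted p = 0.0021), and 3.70 (SE 0.09, adjusted p = 5.1e-11) without both libraries that stand apart. The labelled Rasa1-KO gave 2.29 (SE 0.80, adjusted p = 0.038), and 1.71 (SE 0.09, adjusted p = 1.3e-08) without both. This call was lost without any 1 of 8 libraries (control 1, library 2 labelled double-KO, and each labelled Rasa1-KO and Nf2-KO library), with adjusted p between 0.051 and 0.078. Between control and the labelled double-KO the value was -2.22 (SE 0.85, adjusted p = 0.16), and -2.51 (SE 0.11, adjusted p = 9.8e-08) without both.

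Mmp9 (gelatinase B) was between 4.31 and 6.93 CPM in control, between 7.08 and 8.53 CPM in the labelled Rasa1-KO, between 15.6 and 17.5 CPM in Nf2-KO and between 2.29 and 3.31 CPM in the labelled double-KO. It rose in Nf2-KO (log2 fold change 1.51, SE 0.19, adjusted p = 7.5e-05) and fell in the labelled double-KO (-0.99, SE 0.19, adjusted p = 0.011). Mmp11 and Mmp19, secreted MMPs, rose in the labelled Rasa1-KO by log2 fold changes of 1.03 (SE 0.13) and 1.11 (SE 0.19), and in Nf2-KO by 1.16 (SE 0.13) and 1.55 (SE 0.19). Mmp19 gave -0.20 (SE 0.19, adjusted p = 0.61) in the labelled double-KO, and -0.50 (SE 0.11, adjusted p = 0.005) without both libraries that stand apart. In the labelled double-KO, Mmp11 gave -0.52 (SE 0.14, adjusted p = 0.043), a call lost without any 1 of 11 libraries (all but the unnumbered control), with adjusted p between 0.056 and 0.15.

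Among the membrane-type MMPs, Mmp14 (MT1-MMP), which cleaves collagen at the cell surface and activates Mmp2, was abundant and not called in any group. It had 196, 182 and 148 CPM in control, 140, 150 and 145 CPM in the labelled Rasa1-KO, 155, 152 and 158 CPM in Nf2-KO and 174, 176 and 173 CPM in the labelled double-KO. Its log2 fold changes lay between -0.27 (SE 0.10) and -0.01 (SE 0.10). Mmp15 (MT2-MMP) was between 23.1 and 45.7 CPM in control and between 4.30 and 5.95 CPM in Nf2-KO, where its log2 fold change was -2.89 (SE 0.27, adjusted p = 7.3e-06). It gave -1.86 (SE 0.26, adjusted p = 0.00019) in the labelled Rasa1-KO and -1.10 (SE 0.25, adjusted p = 0.025) in the labelled double-KO, a call lost without control 1 or 2 or any library of the group (adjusted p between 0.055 and 0.091). Mmp17 (MT4-MMP) rose in Nf2-KO (1.04, SE 0.21, adjusted p = 0.0018) and in the labelled Rasa1-KO (0.68, SE 0.21, adjusted p = 0.021), where the call was lost without control 1 or 2 or labelled Rasa1-KO library 2 or unnumbered (adjusted p between 0.054 and 0.074). Mmp17 gave, in the labelled double-KO, 0.38 (SE 0.21, adjusted p = 0.32), and 0.72 (SE 0.16, adjusted p = 0.0051) without both libraries that stand apart. Mmp28 (epilysin), an MMP of epithelia, fell by 1.35 (SE 0.18) and 1.63 (SE 0.19) on the log2 scale in the labelled Rasa1-KO and Nf2-KO. In the labelled double-KO it gave -0.73 (SE 0.18, adjusted p = 0.034), lost without any 1 of 8 libraries (controls 1 and 2, labelled double-KO 2 and 3, each labelled Rasa1-KO library and Nf2-KO 1), with adjusted p between 0.053 and 0.17.

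**Figure D4:**
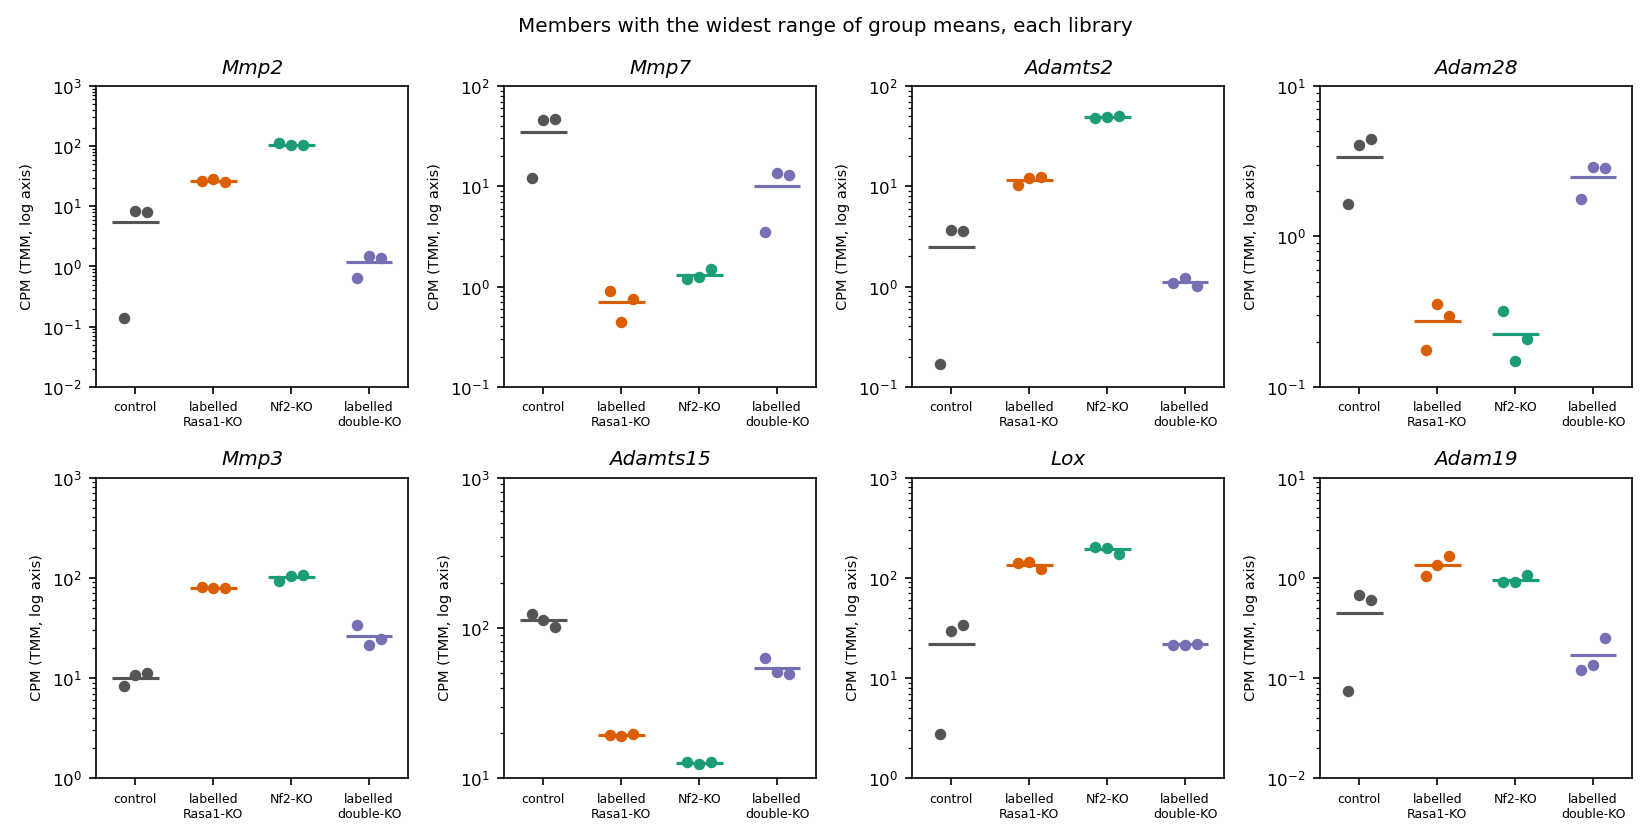
CPM (TMM, log axis) in each library of the 8 named members with the widest range of group means. Points are libraries and lines are means of 3. Mmp2, Adamts2 and Lox were highest in the Nf2-KO libraries, Mmp7 and Adam28 lowest in the labelled Rasa1-KO and Nf2-KO libraries, and the unnumbered control, the first grey point, lies below the other controls in 7 of the panels, all but Adamts15.

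Of the 16 ADAMs, 3 rose and 7 fell in the labelled Rasa1-KO, 2 rose and 7 fell in Nf2-KO, and 1 fell in the labelled double-KO. Those that rose were no larger a share than that of all genes (19.7%, 20.6% and 4.0%), and 22.2%, 22.2% and 2.46% of all genes fell. The sheddases Adam10, which cleaves Notch receptors, and Adam17, which releases TNF and EGF receptor ligands, did not move alike. Adam10 had 228, 372 and 491 CPM in control, 192, 201 and 152 CPM in the labelled Rasa1-KO, 201, 168 and 136 CPM in Nf2-KO and 389, 323 and 353 CPM in the labelled double-KO. It fell by 1.00 (SE 0.24, adjusted p = 0.0063) and 1.11 (SE 0.24, adjusted p = 0.0032) on the log2 scale in the labelled Rasa1-KO and Nf2-KO, whose libraries lay below all controls. Adam17 lay between 83.0 and 131 CPM in all libraries, with log2 fold changes against control of -0.29, -0.03 and 0.19 (SE 0.13 each), and none was called. Adam17 gave 0.30 (SE 0.08, adjusted p = 0.019) in the labelled double-KO without both libraries that stand apart.

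Adam9, which has been linked to the release of EGF receptor ligands, was the second most abundant member in control. It had 387, 331 and 300 CPM in control, 313, 315 and 318 CPM in the labelled Rasa1-KO, 316, 322 and 308 CPM in Nf2-KO and 466, 402 and 411 CPM in the labelled double-KO. Only the labelled double-KO libraries lay above all controls, with a log2 fold change of 0.33 (SE 0.11, adjusted p = 0.098, 0.023 with the block by table names and 0.004 without both libraries that stand apart). Adam15, an ADAM with an integrin-binding sequence, had 102, 73.1 and 57.6 CPM in control, 85.8, 92.0 and 91.0 CPM in the labelled Rasa1-KO, 82.5, 88.7 and 95.3 CPM in Nf2-KO and 91.5, 79.4 and 76.8 CPM in the labelled double-KO. The groups of Adam15 overlapped control through the unnumbered library, the highest of all, and its 4-group test gave an adjusted p of 0.65. Adam15 rose, without both libraries that stand apart, by 0.46 (SE 0.10, adjusted p = 0.0017) in the labelled Rasa1-KO and by 0.44 (SE 0.10, adjusted p = 0.002) in Nf2-KO. With all libraries these values were 0.21 and 0.19 (SE 0.17 each, adjusted p = 0.35 and 0.37).

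The ADAMs that rose were Adam8, Adam12 and Adam19, all membrane-bound and catalytically active. Adam8 was between 16.5 and 24.5 CPM in control, between 54.2 and 56.6 CPM in the labelled Rasa1-KO and between 43.5 and 44.4 CPM in Nf2-KO, with log2 fold changes of 1.40 and 1.06 (SE 0.19 each, adjusted p = 0.00017 and 0.00091). In the labelled double-KO it gave 0.60 (SE 0.19, adjusted p = 0.088, 0.0027 with the block by table names and 0.00013 without both libraries that stand apart). Adam12 rose by log2 fold changes of 0.98 and 1.40 (SE 0.15 each) in the labelled Rasa1-KO and Nf2-KO. Adam19 had 0.0744, 0.667 and 0.595 CPM in control, 1.04, 1.35 and 1.64 CPM in the labelled Rasa1-KO, 0.906, 0.912 and 1.06 CPM in Nf2-KO and 0.120, 0.134 and 0.251 CPM in the labelled double-KO. Its rise in the labelled Rasa1-KO (log2 fold change 1.62, SE 0.57, adjusted p = 0.041) was lost without any 1 of 7 libraries (library 2 labelled double-KO and each labelled Rasa1-KO and Nf2-KO library), with adjusted p between 0.053 and 0.12. Without both libraries that stand apart it was 1.09 (SE 0.30, adjusted p = 0.0069), and Adam19 then also gave -1.70 (SE 0.37, adjusted p = 0.0058) in the labelled double-KO, against -1.37 (SE 0.62, adjusted p = 0.23) with all libraries.

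Adam28, an ADAM of epithelia and lymphocytes, was the ADAM that fell most. It had 1.65, 4.03 and 4.45 CPM in control, 0.176, 0.353 and 0.295 CPM in the labelled Rasa1-KO, 0.318, 0.148 and 0.209 CPM in Nf2-KO and 1.76, 2.88 and 2.85 CPM in the labelled double-KO. The labelled Rasa1-KO and Nf2-KO libraries lay below all others, with log2 fold changes of -3.61 (SE 0.45, adjusted p = 8.9e-05) and -3.89 (SE 0.46, adjusted p = 4.1e-05). Adam23, an ADAM without protease activity that serves in cell adhesion, fell in all knockout groups, by 1.51 and 1.26 on the log2 scale in the labelled Rasa1-KO and Nf2-KO, and by 1.47 in the labelled double-KO (SE 0.31 each). The last call (adjusted p = 0.016) was lost without library 2 or 3 labelled double-KO (adjusted p = 0.084 and 0.092). Adam4, Adam1a and Adam1b, known from the testis, fell in the labelled Rasa1-KO and Nf2-KO by between 0.79 and 2.02 on the log2 scale, and Adam1a and Adam1b are close copies whose reads may not be told apart. The call of Adam1b in Nf2-KO was lost without Nf2-KO library 3 (adjusted p = 0.052).

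Of the 15 ADAMTS genes, 1 rose and 7 fell in the labelled Rasa1-KO, 4 rose and 5 fell in Nf2-KO, and 3 fell in the labelled double-KO, beside 19.7%, 20.6% and 4.0% of all genes that rose and 22.2%, 22.2% and 2.46% that fell. Adamts1, which cleaves the proteoglycans versican and aggrecan, was the most abundant member in control. It had 817, 524 and 436 CPM in control, 199, 204 and 203 CPM in the labelled Rasa1-KO, 280, 294 and 299 CPM in Nf2-KO and 349, 384 and 382 CPM in the labelled double-KO. All knockout libraries lay below all controls, and the log2 fold changes were -1.55 (SE 0.19, adjusted p = 6.2e-05), -1.03 (SE 0.18, adjusted p = 0.00088) and -0.67 (SE 0.18, adjusted p = 0.05, just under the threshold). The last call was lost without any 1 of 10 libraries (all but the unnumbered control and control 2), with adjusted p between 0.066 and 0.16. Its value was -0.37 (SE 0.09, adjusted p = 0.012) without the unnumbered control, and -0.33 (SE 0.09, adjusted p = 0.018) without both libraries that stand apart.

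Adamts15, a protease of versican and aggrecan as well, gave the smallest p of the 4-group test among members (adjusted p = 2e-08). It had 124, 113 and 101 CPM in control, 19.4, 19.2 and 19.6 CPM in the labelled Rasa1-KO, 12.8, 12.4 and 12.8 CPM in Nf2-KO and 63.5, 50.7 and 49.4 CPM in the labelled double-KO. No 2 groups overlapped, and on the log2 scale it fell by 2.53, 3.15 and 1.04 (SE 0.12, 0.12 and 0.11). Adamts9, which also cleaves these proteoglycans, fell by 1.42 (SE 0.23) in the labelled Rasa1-KO. In Nf2-KO, whose libraries overlapped control, it gave -0.73 (SE 0.23, adjusted p = 0.022), lost without control 1 or 2 or Nf2-KO library 2 or 3 (adjusted p between 0.065 and 0.095). Adamts13, which cleaves von Willebrand factor, fell by 2.21 (SE 0.40) and 1.84 (SE 0.39) on the log2 scale in the labelled Rasa1-KO and Nf2-KO.

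Adamts2 and Adamts3, which remove the N-terminal part of procollagen, moved in opposite directions. Adamts2 (Entrez gene 216725, chromosome 11, 50602085 to 50807573) had 0.170, 3.62 and 3.57 CPM in control, 10.4, 12.03 and 12.4 CPM in the labelled Rasa1-KO, 47.9, 48.6 and 50.2 CPM in Nf2-KO and 1.08, 1.22 and 1.00 CPM in the labelled double-KO. Nf2-KO lay above all other libraries, and the labelled Rasa1-KO above all controls. The log2 fold changes were 2.27 (SE 0.64, adjusted p = 0.015) in the labelled Rasa1-KO and 4.34 (SE 0.69, adjusted p = 0.0004) in Nf2-KO, and 1.69 (SE 0.11) and 3.77 (SE 0.12) without both libraries that stand apart. Adamts2 gave, in the labelled double-KO, -1.13 (SE 0.66, adjusted p = 0.36), and -1.70 (SE 0.14, adjusted p = 6.2e-06) without both. Adamts3, by contrast, was between 3.92 and 8.63 CPM in control and between 0.906 and 1.75 CPM in both the labelled Rasa1-KO and Nf2-KO, with log2 fold changes of -2.29 (SE 0.33) and -2.39 (SE 0.34). Adamts14, the third of this kind, rose in Nf2-KO (1.37, SE 0.27, adjusted p = 0.0018). In the labelled double-KO it gave -1.05 (SE 0.28, adjusted p = 0.046), lost without any 1 of 11 libraries (all but the unnumbered control), with adjusted p between 0.062 and 0.18.

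Adamts4 and Adamts5, known as the aggrecanases of cartilage, gave 0.34 (SE 0.11, adjusted p = 0.027) and 1.06 (SE 0.30, adjusted p = 0.015) on the log2 scale in Nf2-KO. The first was lost without control 2 or any Nf2-KO library (adjusted p between 0.059 and 0.086) and the second without Nf2-KO library 2 (adjusted p = 0.051). Adamts4 also fell in the labelled Rasa1-KO by 0.52 (SE 0.11, adjusted p = 0.003), so its calls in these groups had opposite directions. Adamts6, Adamts7 and Adamts10 passed the 4-group test and were not called against control in any group with all libraries in the fit. In the labelled double-KO, Adamts6 gave -0.49 (SE 0.14, adjusted p = 0.065, and 0.043 with the block by table names) and Adamts10 -0.97 (SE 0.27, adjusted p = 0.055, and 0.00044 with the block). All 3 were called without both libraries that stand apart. Adamts10 then gave -0.32 (SE 0.11, adjusted p = 0.022) in the labelled Rasa1-KO, 0.68 (SE 0.11, adjusted p = 0.00017) in Nf2-KO and -0.95 (SE 0.12, adjusted p = 0.00021) in the labelled double-KO. Adamts7 gave -0.51 (SE 0.09, adjusted p = 0.00023) in the labelled Rasa1-KO, and Adamts6 gave -0.66 (SE 0.14, adjusted p = 0.0042) in the labelled double-KO. With all libraries, Adamts10 gave -0.67 (SE 0.27, adjusted p = 0.063) in the labelled Rasa1-KO and 0.33 (SE 0.26, adjusted p = 0.34) in Nf2-KO. Adamts7 gave -0.31 (SE 0.16, adjusted p = 0.15) in the labelled Rasa1-KO with all libraries. Adamtsl5, an ADAMTS-like protein without a protease domain, rose by log2 fold changes of 1.00 and 0.58 (SE 0.15 each) in the labelled Rasa1-KO and Nf2-KO. With only the groups compared in the fit, the calls of Mmp2, Mmp17, Mmp23, Adam19 and Adamts2 in the labelled Rasa1-KO and of Mmp23, Adamts4, Adamts9, Adamtsl4, Adamtsl5 and Plaur in Nf2-KO were lost (adjusted p between 0.067 and 0.14).

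All 4 lysyl oxidases analysed rose in the labelled Rasa1-KO and in Nf2-KO, and 2 of them, Loxl2 and Loxl4, also in the labelled double-KO, beside 19.7%, 20.6% and 4.0% of all genes that rose. Lox, the first known enzyme of the family, had 2.75, 29.6 and 33.6 CPM in control, 141, 142 and 121 CPM in the labelled Rasa1-KO, 203, 198 and 174 CPM in Nf2-KO and 21.6, 21.5 and 22.04 CPM in the labelled double-KO. The labelled Rasa1-KO and Nf2-KO libraries lay above all others, and the unnumbered control lay far below the other controls. The log2 fold changes were 2.62 (SE 0.61, adjusted p = 0.0051) and 3.13 (SE 0.62, adjusted p = 0.0018). Without both libraries that stand apart they were 2.095 (SE 0.11) and 2.61 (SE 0.11), and the labelled double-KO value went from -0.01 (SE 0.57, adjusted p = 0.99) to -0.53 (SE 0.11, adjusted p = 0.0039).

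Loxl2, the most abundant of the family in control by FPKM, had 104, 111 and 111 CPM in control, 146, 149 and 140 CPM in the labelled Rasa1-KO, 198, 196 and 196 CPM in Nf2-KO and 145, 174 and 171 CPM in the labelled double-KO. All knockout libraries lay above all controls, and the log2 fold changes were 0.41, 0.86 and 0.59 (SE 0.09 each, adjusted p = 0.0036, 1.8e-05 and 0.003). Loxl4 rose by 1.04, 1.18 and 0.70 (SE 0.11 each) in the same order, and Loxl3 by 1.11 and 1.35 (SE 0.16 each) in the labelled Rasa1-KO and Nf2-KO.

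In the plasminogen system, Plau and its receptor Plaur rose in every knockout group. Plau had 5.64, 7.35 and 7.42 CPM in control, 29.0, 28.2 and 32.1 CPM in the labelled Rasa1-KO, 42.9, 47.2 and 45.6 CPM in Nf2-KO and 13.1, 15.3 and 15.4 CPM in the labelled double-KO. No 2 groups overlapped, and the log2 fold changes against control were 2.13, 2.73 and 1.11 (SE 0.13 each, adjusted p = 4.6e-07, 5.6e-08 and 0.00062). Plaur, which holds Plau at the cell surface, had 38.9, 43.9 and 30.7 CPM in control, 64.9, 68.5 and 67.7 CPM in the labelled Rasa1-KO, 50.4, 49.6 and 53.4 CPM in Nf2-KO and 45.7, 61.2 and 63.6 CPM in the labelled double-KO. Its knockout libraries all lay above the controls. It rose in the labelled Rasa1-KO (log2 fold change 0.82, SE 0.15, adjusted p = 0.001). The value in Nf2-KO was 0.43 (SE 0.15, adjusted p = 0.032), lost without control 2 or any Nf2-KO library (adjusted p between 0.063 and 0.11), and that in the labelled double-KO 0.59 (SE 0.15, adjusted p = 0.036), lost without any 1 of 9 libraries (control 2, labelled double-KO 2 and 3, and each labelled Rasa1-KO and Nf2-KO library), with adjusted p between 0.059 and 0.15. Plat had 214, 206 and 150 CPM in control, 180, 169 and 176 CPM in the labelled Rasa1-KO, 218, 235 and 253 CPM in Nf2-KO and 367, 244 and 255 CPM in the labelled double-KO. It was not called against control in any group (0.61, SE 0.17, adjusted p = 0.057 in the labelled double-KO, and 0.012 with the block by table names). Plat gave, without both libraries that stand apart, 0.41 (SE 0.12, adjusted p = 0.008) in Nf2-KO and 0.49 (SE 0.13, adjusted p = 0.013) in the labelled double-KO. The Nf2-KO value of Plat with all libraries was 0.31.

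A direct comparison of the labelled Rasa1-KO with Nf2-KO, the groups with low Nf2 mRNA, called 7 members. Adamts15 was higher in the labelled Rasa1-KO (1 member, against 1.92% of all genes), and Mmp9, Adamts4, Adamts7, Adamts16, Loxl2 and Plau were lower (6 members, against 1.74%). The log2 differences were 0.62 (SE 0.11) for Adamts15, -1.10 (SE 0.19) for Mmp9, -0.86 (SE 0.11) for Adamts4 and -0.60 (SE 0.12) for Plau. Loxl2 gave -0.44 (SE 0.09), Adamts7 -0.69 (SE 0.16) and Adamts16, below 1 CPM in every group, -2.37 (SE 0.40). Mmp2 and Adamts2 gave -1.99 (SE 0.78) and -2.08 (SE 0.62) and were not called, although their libraries did not overlap. The number rests on the fit: with only these groups in it, 30 members were called, 7 higher and 23 lower in the labelled Rasa1-KO, against 12% and 13.8% of all genes, among them Mmp2 (-2.00, SE 0.07) and Adamts2 (-2.08, SE 0.08). It was 27 without both libraries that stand apart (19.2% of all genes), 19 without the unnumbered control alone (12.2% of all genes), and 2 or 3 without any 1 library of the groups compared (between 1.15% and 1.49% of all genes). Of the 7 calls, those of Adamts4 and Adamts16 held without any 1 library.

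Between the labelled double-KO and the labelled Rasa1-KO, 19 members were higher and 19 lower in the labelled double-KO, against 16.3% and 14% of all genes. The log2 difference was -4.51 (SE 0.90) for Mmp2, -3.395 (SE 0.68) for Adamts2, -2.99 (SE 0.62) for Adam19 and -2.63 (SE 0.61) for Lox, and the libraries of the groups did not overlap for any of them. It was 3.84 (SE 0.61) for Mmp7, 3.17 (SE 0.44) for Adam28, 2.18 (SE 0.33) for Adamts3 and 2.13 (SE 0.40) for Adamts13. Adam10 (0.97, SE 0.24, adjusted p = 0.011) and Adam17 (0.48, SE 0.13, adjusted p = 0.017) were higher too. The first was lost without library 2 labelled Rasa1-KO (adjusted p = 0.053), and the second without library 1 labelled double-KO or libraries 2 or unnumbered labelled Rasa1-KO (adjusted p between 0.059 and 0.066). Mmp13 did not differ detectably between these groups (0.16, SE 0.23, adjusted p = 0.63), but gave 0.39 (SE 0.12, adjusted p = 0.013) without both libraries that stand apart, where 45 members were called, against 50.3% of all genes.

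Whether the knockouts add up was tested as the departure of the labelled double-KO from the sum of the other changes on the log2 scale. As labelled, 43 members departed, against 52.4% of all genes, and 47 without both libraries that stand apart, against 69.0%. With both labels exchanged the number was 10, against 6.41% of all genes. The number thus depends on which libraries hold the double knockout, and Nf2 mRNA goes against the labels, as given above.

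Of 45 genes listed as inhibitors, activators or partners of these enzymes, 35 were analysed. Their median log2 fold changes against control were -0.17 in the labelled Rasa1-KO and -0.11 in Nf2-KO, against -0.08 and -0.07 for all genes. Against control, 11 rose and 11 fell in the labelled Rasa1-KO, 14 rose and 10 fell in Nf2-KO, and 6 rose and 1 fell in the labelled double-KO, beside 19.7%, 20.6% and 4.0% of all genes that rose and 22.2%, 22.2% and 2.46% that fell. With both libraries that stand apart left out, these counts were 12 and 13, 14 and 16, and 10 and 5, beside 32.5%, 33.0% and 17.1% of all genes that rose and 33.4%, 33.9% and 12.8% that fell. Of 11 genes listed as inhibitors, 5 rose and 1 fell in the labelled Rasa1-KO. In Nf2-KO, 7 of them rose and 1 fell, and 3 rose in the labelled double-KO. These counts include Cst3 and Sparc, which rose in the labelled Rasa1-KO and Nf2-KO and are not inhibitors of the members themselves.

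Timp3, an inhibitor of MMPs, ADAMs and ADAMTS proteases, rose by log2 fold changes of 2.20 (SE 0.28), 3.16 (SE 0.29) and 1.58 (SE 0.27), from between 19.6 and 35.6 CPM in control to between 257 and 277 CPM in Nf2-KO. Timp2, which also takes part in the activation of Mmp2 by Mmp14, fell by 0.94 and 1.07 (SE 0.17 each) in the labelled Rasa1-KO and Nf2-KO. Serpinb2 (PAI-2), an inhibitor of Plau, rose by 3.65 (SE 0.69) and 3.46 (SE 0.68) in these groups, as did Cst3 and Sparc, and Timp1 rose by 0.64 (SE 0.14) in Nf2-KO. Papln rose in Nf2-KO and the labelled double-KO (1.05, SE 0.34, and 2.43, SE 0.35), where its level stayed between 1.01 and 4.53 CPM. Of the activating proteases, Furin, Pcsk7, Tll1 and Tll2 fell in both the labelled Rasa1-KO and Nf2-KO, with Tll1 at -3.16 and -3.30 (SE 0.35 each), and Pcsk6 rose by 1.00 and 0.95 (SE 0.18 each). Bmp1, which processes procollagen and the precursor of Lox, fell in the labelled Rasa1-KO (-0.81, SE 0.22). Rhbdf2 (iRhom2), which brings Adam17 to the surface, fell by 0.75 and 0.76 (SE 0.09 each), and Tspan33, a partner of Adam10, by 1.24 and 2.04 (SE 0.16 each). Of the other partners of Adam10 and Adam17, Tspan14 rose in both groups, Tspan15 fell (-1.18, SE 0.12) and Rhbdf1 rose (0.32, SE 0.11) in Nf2-KO, and Tspan17 fell in the labelled double-KO (-0.40, SE 0.11). Basigin (Bsg), a surface inducer of MMPs, rose by 2.0998, 1.81 and 1.14 (SE 0.20, 0.20 and 0.19) in the 3 knockout groups, and Cd44, which holds MMPs at the surface, fell by 1.60 and 1.48 (SE 0.27 each) in the labelled Rasa1-KO and Nf2-KO. S100a10 and Anxa2, which form a receptor for plasminogen, rose by 1.35 and 1.00 in the labelled Rasa1-KO and by 1.25 and 0.94 in Nf2-KO (SE 0.19 and 0.16). In the labelled double-KO, Anxa2 rose as well (0.86, SE 0.16, adjusted p = 0.0081), and S100a10 was not called (0.61, SE 0.19, adjusted p = 0.081). Efemp2, which binds Lox to elastic fibres, rose in all 3 knockout groups by between 0.53 and 1.04 (SE 0.10 each). Tnxb fell in the labelled Rasa1-KO and Nf2-KO, and Fn1 (fibronectin) in the labelled Rasa1-KO (-0.99, SE 0.37, adjusted p = 0.047). The unnumbered control had 1288 CPM of Fn1, below the other controls (3997 and 4232 CPM) and all labelled Rasa1-KO libraries (between 1311 and 1924 CPM), and without both libraries that stand apart the value was -1.36 (SE 0.17, adjusted p = 2.2e-05).

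Fibroblast markers moved with Mmp2, Adamts2 and Lox. Of 8 such markers 6 were analysed, none of them at a count of 0, and 5 of them rose and Dcn fell both in the labelled Rasa1-KO and in Nf2-KO. Of the 6, 1 fell in the labelled double-KO, and 4 without both libraries that stand apart. Their summed level was 73.8, 921 and 738 CPM in control, 2475, 2613 and 2579 CPM in the labelled Rasa1-KO, 6990, 7255 and 7582 CPM in Nf2-KO and 116, 274 and 268 CPM in the labelled double-KO, with the most counts for Col3a1. Both this sum and Mmp2, Adamts2 and Lox were lowest of the controls in the unnumbered library. Col1a2 had 0.0213, 0.163 and 0.496 CPM in control and between 132 and 141 CPM in Nf2-KO. Leukocyte and macrophage markers, of which 3 of 6 were analysed, summed to 6.60, 10.1 and 10.2 CPM in control, between 21.5 and 23.9 CPM in the labelled Rasa1-KO, between 16.6 and 18.3 CPM in Nf2-KO and 8.16, 17.1 and 18.2 CPM in the labelled double-KO. The level of Mmp12 was higher in the labelled Rasa1-KO and Nf2-KO libraries than in all controls, but not called in Nf2-KO. The marker sum was thus, like Mmp12, higher in both groups than in all controls. Most of it was Cd68, which rose in these groups by log2 fold changes of 1.58 (SE 0.27) and 1.02 (SE 0.26), whereas Ptprc, the marker of all leukocytes, stayed between 0.110 and 0.572 CPM and was not called (without both libraries that stand apart, it fell by 1.29 and 1.23 in these groups, SE 0.40 each). Csf1r rose in Nf2-KO (0.90, SE 0.32). Of the endothelial markers, 2 of 4 were analysed, with sums between 0.552 and 1.53 CPM, and in both groups Kdr rose (1.35, SE 0.41, and 1.28, SE 0.41) and Pecam1 fell (-1.46 and -1.62, SE 0.37 each). The epithelial markers did not move alike. Epcam fell in all knockout groups, by 1.55, 2.63 and 0.84 on the log2 scale (SE 0.18, 0.19 and 0.18). Krt8, Krt18 and Krt19 rose in the labelled Rasa1-KO by log2 fold changes of 0.64 (SE 0.22), 0.83 (SE 0.20) and 0.70 (SE 0.15), and Krt19 rose in the labelled double-KO (0.72, SE 0.15). These keratins rose in Nf2-KO as well without both libraries that stand apart (0.51, SE 0.13, 0.47, SE 0.12, and 0.31, SE 0.10). Cldn4 was not called in any group, and the median of the 5 markers was 0.70, 0.11 and 0.45 in the labelled Rasa1-KO, Nf2-KO and the labelled double-KO. The part of other cell types or cell states in the results was not tested, and in bulk RNA fewer cells of a type and less RNA per cell cannot be told apart.

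**Figure D5:**
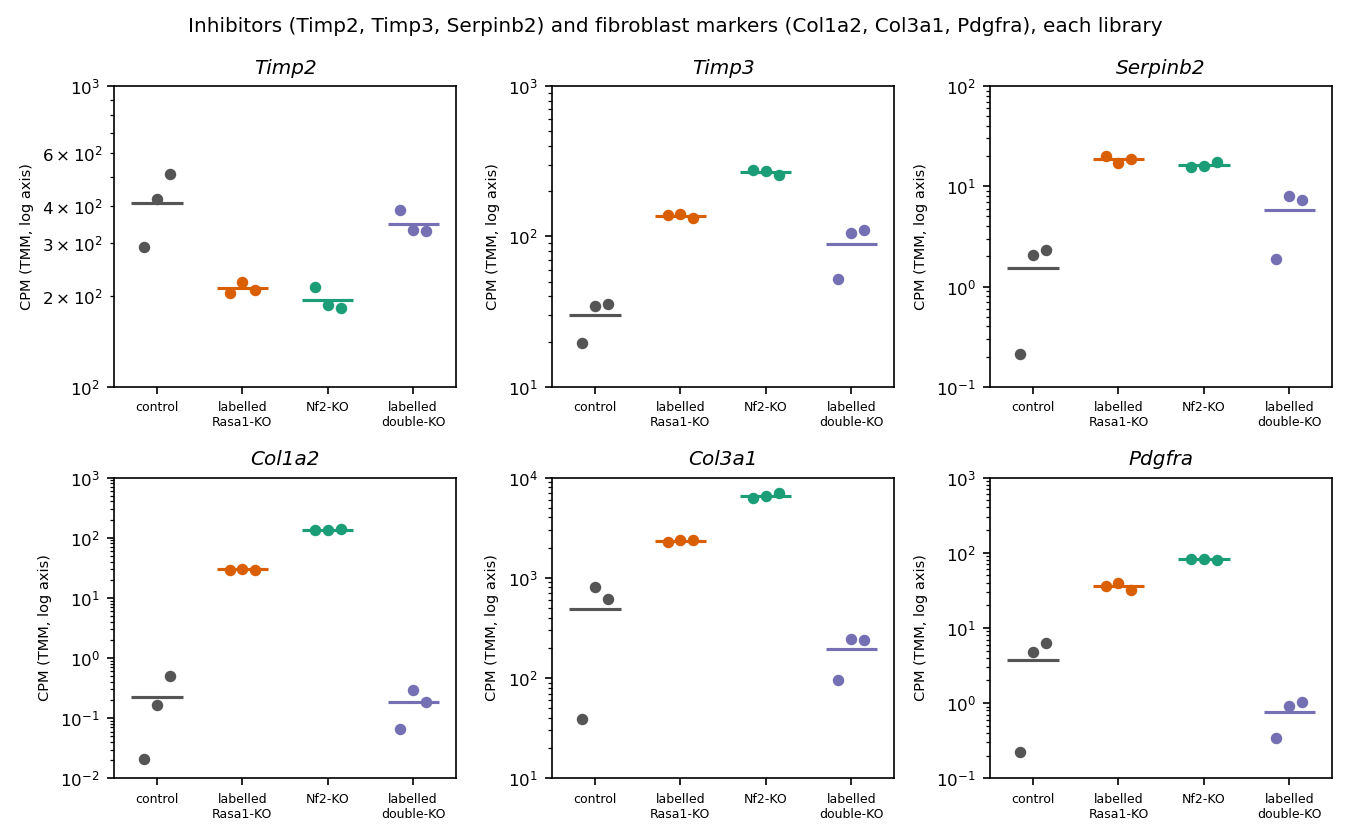
CPM (TMM, log axis) in each library of 3 inhibitors (top row) and 3 fibroblast markers (bottom row). Points are libraries, and lines are means of 3. Timp3 lies higher in all knockout libraries than in control, Timp2 lies lower in the labelled Rasa1-KO and Nf2-KO, and Serpinb2 lies higher there, and the fibroblast markers are highest in Nf2-KO, with the unnumbered control, the first grey point, below the other controls.

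The remaining 10 members, which did not pass the 4-group test or stayed below 1 CPM, were Mmp23, Mmp24, Adam11, Adam21, Adam30, Adam33, Adamts12, Adamts16, Adamts17 and Adamtsl4. Of these, 8 stayed below 1 CPM in every group mean, and 3 of the 8, Adam11, Adamts16 and Mmp23, passed the 4-group test. Adamts16 fell in the labelled Rasa1-KO (-2.20, SE 0.40, adjusted p = 0.0012) and gave 0.17 (SE 0.36) in Nf2-KO, and Adam11 fell by 2.47 (SE 0.40) and 2.16 (SE 0.39) in these groups. Adamts12 and Adamtsl4 were above 1 CPM and did not pass it, although Adamtsl4 was called in Nf2-KO (-0.83, SE 0.28, adjusted p = 0.034), with libraries that overlapped control. This call was lost without control 1 or 2 or Nf2-KO library 2 or 3 (adjusted p between 0.10 and 0.12). Without both libraries that stand apart Adamtsl4 gave -0.90 (SE 0.14, adjusted p = 0.00012) in the labelled Rasa1-KO and -1.12 (SE 0.14, adjusted p = 2e-05) in Nf2-KO. Calls that appeared in that fit were those of Adam30 in the same groups (-1.29 and -1.14, SE 0.40 and 0.39), Adam33 in the labelled Rasa1-KO (-1.95, SE 0.60), Adamts12 in Nf2-KO (-0.62, SE 0.22) and Adam11 in the labelled double-KO (-1.42, SE 0.43), with adjusted p between 0.013 and 0.028. The values with all libraries were, in the same comparisons, -0.76 and -0.61 for Adam30 (SE 0.82 and 0.81, adjusted p = 0.48 and 0.56). They were -1.46 for Adam33 (SE 0.78, adjusted p = 0.15), -0.41 for Adamts12 (SE 0.26, adjusted p = 0.22) and -1.18 for Adam11 (SE 0.37, adjusted p = 0.086). Adamtsl4 gave -0.61 (SE 0.28, adjusted p = 0.10) in the labelled Rasa1-KO with all libraries. Adamts17 had 1 count in library 1 labelled double-KO, the lowest count of a member. Transcripts of 17 members overlap another listed gene in the annotation, such as Loxl3 with Htra2 and Adam17 with Iah1, and whether strand was used in counting is not given in the sources used here, so such reads cannot be told apart.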

How the data were processed

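The authors used Trimmomatic 0.38 for trimming, HISAT 2.1.0 for alignment to mm10, SAMtools 1.9, and StringTie 2.1.3b with RefSeq for quantification. They deposited raw counts per gene, FPKM and TPM. The counts were tested, and the FPKM, which the authors scaled by length and mapped reads, gave levels between genes. The deposited TPM and the deposited normalized score per gene were not used. Tests used edgeR 4.0.16 in R 4.3.3 (filterByExpr, TMM, glmQLFit, 1 fit of 4 groups). The study used DESeq2, and DESeq2 1.42.0 was an alternative here. Figures were drawn with matplotlib 3.10.9.

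The members and lists were chosen with earlier results of these data known. Named are members that pass the 4-group test with a group mean of at least 1 CPM, the 10 highest in control by FPKM, Nf2 and Rasa1, and list genes called against control, 1 of which is not reported here. Values of every library are given for the 8 named members with the widest range of group means and the 8 highest in level, and for a few others chosen after their values were seen. Simulated data were used to test the fitting code. Numbers in the sample titles did not pair libraries. By the names of the tables, pairs of control and labelled double-KO libraries had correlations of deviations of 0.626, 0.313 and 0.444. Of the numbered libraries, those with unlike numbers correlated about as much (0.258 and 0.399), and the unnumbered pair alone stood out. No other groups paired. Blocks by either kind of number were fitted for all comparisons as alternatives. Alternatives were RLE size factors, DESeq2, no filter, the rule of the study, fewer groups, blocks, exchanged labels and each library left out. Total counts per library were between 43818139 and 96674463, and 3 libraries a group give the spread imprecisely.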

Additional observations from a re-analysis of the deposited data

Results flagged for a closer look

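A test of the difference between the knockout effects with and without the other knockout called 43 members as labelled, 20 with a positive and 23 with a negative departure (edgeR, adjusted p under 0.05), beside 27.4% and 24.9% of all genes. With the labels of both conflicting groups exchanged, 10 members were called, beside 6.41% of all genes. These were Adamts15 (1.66 on the log2 scale, SE 0.16), Mmp15 (2.13, SE 0.36) and Mmp28 (1.01, SE 0.26) with a positive departure, and Mmp3 (-1.74, SE 0.23), Mmp13 (-1.60, SE 0.33), Plau (-1.71, SE 0.17), Plat (-1.03, SE 0.24), Loxl2 (-1.03, SE 0.13), Loxl4 (-0.84, SE 0.16) and Adamts4 (-1.01, SE 0.16) with a negative one. Nf2 mRNA and the names of the deposited tables go against the labels of these groups, as given above. Beyond this, which labelling holds was not tested.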

How the results depend on the processing

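Of 125 calls among the 45 named members and 5 comparisons, 124 held with RLE size factors, 125 with DESeq2, 120 with no filter on low counts, 102 with only the groups compared in the fit and 125 without both libraries that stand apart. By the rule of the study, against control the labelled Rasa1-KO had 17 members called, Nf2-KO 15 and the labelled double-KO 3, with 9 between the labelled double-KO and the labelled Rasa1-KO (5.66% of all genes), 3 between the labelled Rasa1-KO and Nf2-KO (1.29%), and 28 for the departure from additivity (25.2%). With exchanged labels, the labelled Rasa1-KO had 15 (6.46% of all genes), the labelled double-KO 37 (41.9%), the labelled Rasa1-KO against Nf2-KO 30 (32.2%), and additivity 10 (6.41%). With only the groups compared, the labelled double-KO had 0 (0.102% of all genes). The labelled Rasa1-KO against Nf2-KO then had 30 (25.8% of all genes), which was 12 (8.74%) with DESeq2. Without both libraries that stand apart these comparisons had 29 (29.9%) and 27 (19.2%). At an unadjusted p under 0.05 the labelled double-KO had 21 of 54 with only the groups compared, against 26 of 55 with all groups. These counts at an unadjusted p were not compared with those of all genes.

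With the replicate block by sample titles, whose numbers did not pair libraries, the labelled double-KO against control had 8 (2.78% of all genes) and the labelled Rasa1-KO against Nf2-KO 1 (1.26%). With the block by table names the latter was 16 (8.66%), and the former 21 (13.9%). Adam23 between the labelled double-KO and the labelled Rasa1-KO (0.04) was -0.38 (adjusted p = 0.022) with this block and -0.40 (adjusted p = 0.0037) without both libraries that stand apart.

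Leaving out 1 library at a time gave the labelled Rasa1-KO 33 to 41 members, Nf2-KO 32 to 40 and the labelled double-KO 8 to 32 against control, with 28 to 40 between the labelled double-KO and the labelled Rasa1-KO, 2 to 19 between the labelled Rasa1-KO and Nf2-KO, 43 to 49 over 4 groups and 39 to 45 for additivity, with each highest value without the unnumbered control. The share of all genes called moved too, between 30.7% and 60.5%, 32.1% and 61.6%, 2.68% and 30.1%, 19.6% and 46.4%, 1.15% and 12.2%, 38.0% and 69.1%, and 45.3% and 65.4% in the same order. Adamts9 in the labelled double-KO against control ranged from -0.27 to 0.18. The cause of these changes was not tested. The 8 members below 1 CPM in every group mean rest on few counts, and the part of depth was not tested.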
